A study of Mus musculus with 6 samples.

Results

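The genes described here are the secreted ligands, receptors, secreted antagonists and transcription factors of the Wnt pathway in the mouse aortic valve. They were chosen by name among protein-coding genes, as Wnt, Fzd, Sfrp, Dkk and Rspo genes with a number, together with Wif1, Lgr4, Lgr5, Lgr6, Lrp5, Lrp6, Axin1, Axin2, Lef1, Tcf7, Tcf7l1 and Tcf7l2. The rule took 53 of the 46983 genes in the tables and used no measured value. Aortic valves of wild type C57BL/6J mice were compared at postnatal day 2 (PND2) and at 4 months. Each age had 3 libraries, and each library held the valves of a pool of 5 to 6 mice, which the labels call biological replicates. The 2 ages differ in no labelled treatment or allele, so the comparison asks how the pathway's messenger RNA differs between the growing and the adult valve. Every value is an RPKM, the reads on a gene per kilobase of its exons and per 1e6 reads of the library, from library totals of 23810507 to 38994657 reads.

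Wnt proteins are secreted lipid-modified ligands that bind Frizzled receptors with the co-receptors Lrp5 or Lrp6. In the canonical branch this protects beta-catenin from a destruction complex built on Axin, and beta-catenin then acts with the Tcf/Lef factors on DNA. R-spondins bind Lgr receptors and raise the amount of Frizzled at the membrane, while Sfrp proteins and Wif1 bind Wnt ligands and Dkk1 and Dkk2 bind the Lrp co-receptors. In heart valves, Wnt signalling is known from the growth of the endocardial cushions and from valve calcification.

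The promoters of 3 members are printed because these genes stand for the patterns described below. They are Sfrp2, the member with the highest level at PND2, Wif1, the antagonist whose fold gain was second to that of Sfrp4, and Wnt5b, a ligand with several listed starts. Each is a RefSeq promoter on GRCm38.p6, the build also called mm10, from 250 bases before to 50 bases after the start of transcription, written 5′ to 3′ along the gene's strand. Capitals mark CG dinucleotides in the first 3 and a CTTTGAT motif, the core letters that Tcf/Lef factors bind, in the last.
Sfrp2, chr3:83766071-83766370, plus strand: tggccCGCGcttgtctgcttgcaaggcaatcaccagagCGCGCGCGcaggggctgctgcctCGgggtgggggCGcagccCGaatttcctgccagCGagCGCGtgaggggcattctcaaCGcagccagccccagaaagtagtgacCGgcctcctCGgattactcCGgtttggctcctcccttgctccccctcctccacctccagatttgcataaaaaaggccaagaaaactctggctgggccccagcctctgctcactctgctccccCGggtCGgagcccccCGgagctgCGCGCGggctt
Wif1, chr10:121033754-121034053, plus strand: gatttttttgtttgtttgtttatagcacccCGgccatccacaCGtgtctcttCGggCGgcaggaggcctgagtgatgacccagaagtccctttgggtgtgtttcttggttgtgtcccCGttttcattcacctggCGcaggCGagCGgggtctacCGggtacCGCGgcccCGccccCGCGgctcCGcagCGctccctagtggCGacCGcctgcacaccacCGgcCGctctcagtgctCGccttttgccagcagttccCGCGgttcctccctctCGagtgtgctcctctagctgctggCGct
Wnt5b far upstream start, chr6:119544298-119544597, minus strand: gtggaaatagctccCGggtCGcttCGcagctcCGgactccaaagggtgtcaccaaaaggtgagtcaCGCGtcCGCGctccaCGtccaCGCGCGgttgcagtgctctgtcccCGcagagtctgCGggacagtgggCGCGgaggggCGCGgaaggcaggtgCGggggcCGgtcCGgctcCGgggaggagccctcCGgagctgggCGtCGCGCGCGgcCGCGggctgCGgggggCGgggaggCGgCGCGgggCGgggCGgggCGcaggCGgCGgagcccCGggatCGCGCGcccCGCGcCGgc
Wnt5b inner start, chr6:119449337-119449636, minus strand: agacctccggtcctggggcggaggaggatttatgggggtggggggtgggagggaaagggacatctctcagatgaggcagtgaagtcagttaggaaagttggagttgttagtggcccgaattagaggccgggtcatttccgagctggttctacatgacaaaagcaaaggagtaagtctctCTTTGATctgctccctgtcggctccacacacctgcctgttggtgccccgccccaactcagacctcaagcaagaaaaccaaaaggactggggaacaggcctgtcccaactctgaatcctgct

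The Sfrp2 window holds 22 CG dinucleotides, that of Wif1 25, the far upstream Wnt5b window 47 and the inner Wnt5b window 7. Of the 53 members, 35 matched an entry of the RefSeq promoters, with 43 promoters between them, out of 32851 promoters of 27025 genes in all. The median GC content was 67.3% over member promoters and 52.7% over all promoters. CTTTGAT or its reverse complement lay in 2 of the 43 member promoters, which are 4.65%, and in 3.73% of all promoters. Both matches belong to ligand genes, Wnt11 and the inner start of Wnt5b, where the motif lies 71 bases before the start. The reads of Wnt5b lay elsewhere. The first exon at its far upstream start held 11, 51 and 62 reads at PND2 and 12, 2 and 21 reads at 4 months, whereas the first exon at the inner start held 1 read in 1 of the 6 libraries.

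Members were called in both directions, at shares near those of other genes. Of the 53 members, 45 were tested, having at least 0.1 RPKM in at least 3 libraries. The test was limma on log2(RPKM + 0.1) over all 25903 genes that passed that filter, and a gene was called at a Benjamini-Hochberg adjusted p under 0.05. Dkk1 passed the filter only through its PND2 libraries, where it is high, so it had to differ. By this test 9 members were higher and 12 lower at 4 months, which are 20% and 26.7% of those tested, beside 14.7% and 21.1% of all genes tested. In either direction 21 members were called, or 46.7%, where 35.8% of all genes tested and 42.2% of the protein-coding genes tested were. A fold over 2 was found for 11 members, or 24.4%, and for 17.2% of all genes tested. Of these, 4 members were higher and 7 lower, where 8.72% and 8.47% of all genes tested were. Without Dkk1, 11 members were lower, 6 of them with a fold over 2. The 3 libraries of the 2 ages did not overlap in 25 of the 45 members, or 55.6%, where 50.0% of all genes tested did not. The shares by direction and by fold are given over all genes tested and not over protein-coding genes alone. The median log2 fold change was 0.16 over the members tested, -0.14 over all genes tested and -0.10 over the protein-coding genes tested. A scaling of the libraries to a common median brought that of all genes tested to -0.02. Folds below are given without that scaling.

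**Figure D1:**
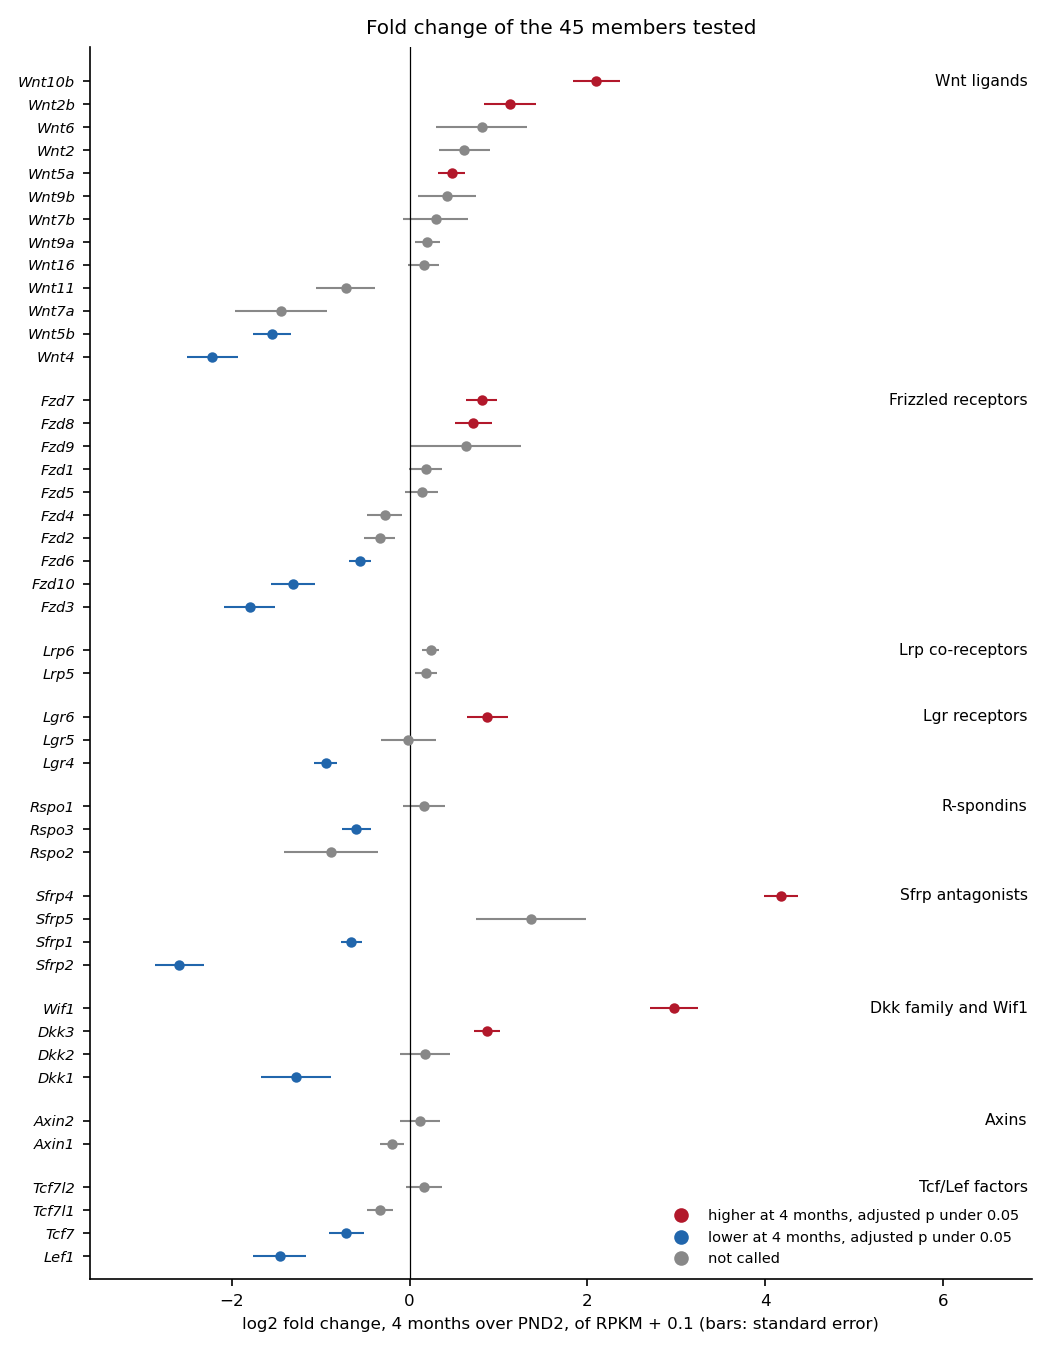
The log2 fold change of RPKM + 0.1, 4 months over PND2, is plotted for each of the 45 members tested, grouped by role, with bars for the standard error from 3 libraries an age. Sfrp4 lies farthest to the right at 4.18 and Sfrp2 farthest to the left at -2.59, and 24 members in grey were not called.

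The tissue label was compared with marker genes, since each library holds all cells of the dissected valve. All 9 interstitial cell markers (such as Postn, Col1a1 and Vim) and all 8 endothelial markers stood above 1 RPKM in every library. So did all 10 cardiomyocyte, all 7 smooth muscle and all 7 macrophage markers, so this level does not tell valve from neighbouring tissue. The 10 cardiomyocyte markers summed to 18216 to 20849 RPKM at PND2 and to 7332 to 11594 at 4 months, with 4 of them lower and none higher. Smooth muscle markers went from 7429 to 8590 up to 16820 to 27858, with 6 of 7 higher, and macrophage markers from 194 to 246 up to 421 to 538, with 6 of 7 higher. Endothelial markers went from 425 to 576 down to 240 to 257, with 8 of 8 lower. Mitotic genes went from 40.1 to 76.9 down to 5.06 to 5.96, with 7 of 7 lower. Adipocyte markers summed to 64.6 to 149 at PND2, to 325 and 342 in replicates 3 and 1 at 4 months and to 1403 in replicate 2, with 5 of 7 higher. Interstitial markers summed to 5290 to 5720 and 7243 to 9332, with 3 higher and 3 lower of 9. At PND2 every cardiomyocyte sum lay above every interstitial sum, and at 4 months their ranges overlapped. Erythroid markers had none called of 6, Schwann cell markers 1 higher of 5, and melanocyte markers 3 lower of 6. The erythroid, Schwann cell and melanocyte sums overlapped between the ages. The other sums did not, and the part of any of these cells in the results below was not tested. In such bulk samples fewer cells of a type and less RNA per cell cannot be told apart.

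Among the ligands, single Wnt genes were called in both directions, and the ages overlapped in their sum. The 19 Wnt genes summed to 99.0, 92.2 and 87.3 RPKM at PND2 and to 93.0, 77.2 and 90.4 RPKM at 4 months. Of the 13 tested, 3 were higher and 2 lower, or 38.5% called, close to the 35.8% of all genes tested and below the 42.2% of protein-coding genes. Wnt4, a ligand made by endocardial and many epithelial cells, was at 16.8, 10.3 and 11.8 RPKM at PND2 and at 3.26, 1.77 and 3.18 RPKM at 4 months. Wnt5b, a mainly non-canonical ligand, was at 10.5, 13.9 and 15.5 RPKM at PND2 and at 4.99, 3.42 and 5.05 RPKM at 4 months. Every PND2 library lay above every library at 4 months for both. The log2 fold changes were -2.22 ± 0.29 for Wnt4 (SE, limma adjusted p = 0.00135) and -1.55 ± 0.22 for Wnt5b (adjusted p = 0.00186). Wnt4 made up 13.9% ± 2.9 of the summed ligand RPKM at PND2 and 3.11% ± 0.70 at 4 months (SD, n = 3), and Wnt5b 14.5% ± 3.6 and 5.13% ± 0.62.

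Wnt10b, a canonical ligand known to hold back fat cell formation, was low at PND2, at 0.352, 0.309 and 0.322 RPKM, and stood at 1.43, 1.75 and 2.07 RPKM at 4 months. Its log2 fold change was 2.1 ± 0.27 (adjusted p = 0.00129), and no library overlapped. Wnt2b, another canonical ligand, was at 2.20, 1.14 and 1.19 RPKM at PND2 and at 3.58, 3.50 and 2.82 RPKM at 4 months, again apart. That difference, 1.13 ± 0.29 (adjusted p = 0.0215), was no longer called without PND2 replicate 2 (0.97, adjusted p = 0.0638), PND2 replicate 3 (1.00, 0.0699), 4 months replicate 1 (1.07, 0.0634) or 4 months replicate 2 (1.09, 0.0655). Wnt5a, the best known non-canonical ligand and the close paralog of Wnt5b, moved the other way from it. It was at 10.5, 11.4 and 12.9 RPKM at PND2 and at 19.5, 15 and 14.3 RPKM at 4 months. The log2 fold change of 0.47 ± 0.15 was just past the threshold (adjusted p = 0.0468), and leaving out any 1 library ended the call, with values from 0.34 to 0.56 and adjusted p from 0.0588 to 0.120. Over all alternatives the adjusted p ran from 0.00626 to 0.131 for Wnt2b and from 0.0111 to 0.144 for Wnt5a.

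The pair of ligands with the highest mean at both ages, Wnt16 and Wnt9b, was not called. Wnt16, known from bone, was at 15.6, 22.6 and 15.3 RPKM at PND2 and at 22.3, 18.7 and 17.9 RPKM at 4 months. Wnt9b, known from the endocardium of developing valves, was at 21.2, 10.03 and 9.70 RPKM and at 14.7, 14.6 and 23.3 RPKM. In both the ages overlapped. Without PND2 replicate 1, its highest PND2 library, Wnt9b was called higher (log2 fold change 0.79, adjusted p = 0.0410), and over all alternatives its adjusted p ran from 0.0410 to 0.714. Wnt9a was at 10.4, 9.79 and 10.4 RPKM at PND2 and at 14, 10.9 and 10.6 RPKM at 4 months, which did not overlap but missed the threshold (0.20 ± 0.14, adjusted p = 0.312). Among ligands of lower level, Wnt11, a non-canonical ligand of heart development, was at 4.22, 8.51 and 5.34 RPKM and at 4.19, 2.30 and 4.30 RPKM (-0.72 ± 0.33, adjusted p = 0.136). Wnt2 was at 3.39, 1.64 and 3.08 RPKM and at 3.47, 4.15 and 4.49 RPKM (0.62 ± 0.29, adjusted p = 0.144). The 3 libraries of each age were apart for Wnt2, by little, and overlapped for Wnt11. Wnt7a was at 3.06, 2.30 and 1.34 RPKM and at 0.625, 0.357 and 1.52 RPKM (-1.45 ± 0.51, adjusted p = 0.0645), and it was called without 4 months replicate 3 (-1.95, adjusted p = 0.0240), its highest at that age. Its adjusted p ran from 0.0240 to 0.206 over the alternatives.

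In RPKM, which is per length, the order of the ligands at PND2 by mean was Wnt16 (17.8 ± 4.1), Wnt9b (13.6 ± 6.6), Wnt5b (13.3 ± 2.6), Wnt4 (13.0 ± 3.4), Wnt5a (11.6 ± 1.2) and Wnt9a (10.2 ± 0.35). Neighbours in that order overlapped in their libraries, except Wnt5a and Wnt9a. At 4 months it was Wnt16 (19.6 ± 2.4), Wnt9b (17.5 ± 5.0), Wnt5a (16.2 ± 2.8) and Wnt9a (11.8 ± 1.9), followed by Wnt5b (4.49 ± 0.93) and Wnt2 (4.04 ± 0.52). There the libraries of Wnt5a and Wnt9a stood just apart and those of Wnt9a and Wnt5b far apart, and the other neighbours overlapped. The ligands Wnt1, Wnt3, Wnt3a, Wnt8a, Wnt8b and Wnt10a were not tested. Wnt3a, used in many laboratories as the model canonical ligand, had 0 reads in all 6 libraries, which allows up to 3 reads a library, or 0.0335 RPKM at PND2. Wnt10a had 0 reads in each PND2 library and 10, 2 and 10 reads at 4 months. The mean at 4 months is 2.51-fold higher when PND2 is placed at 3 reads a library. With 2 reads, 4 months replicate 2 lies below that level, so this ratio is no lower bound and shows no difference. Wnt6 and Wnt7b had means from 0.178 to 0.525 RPKM and were not called.

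Some Wnt genes lie beside another on the chromosome, in 4 pairs under 25 kb apart. Wnt6 and Wnt10a, the closest at 6.2 kb on chromosome 1, were both low, with Wnt6 at means of 0.315 and 0.525 RPKM and Wnt10a at 0 and 0.0942 RPKM. Wnt9b and Wnt3 are 24.3 kb apart on chromosome 11, and Wnt3 had at most 2 reads in a library. Wnt9a and Wnt3a are 16.2 kb apart on the same chromosome. Wnt10b and Wnt1 are 11.7 kb apart on chromosome 15, where Wnt1 held 0, 0 and 2 reads at PND2 and 3, 0 and 5 reads at 4 months. In these 3 pairs 1 gene lay near the limit of detection at both ages and the other was tested.

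**Figure D2:**
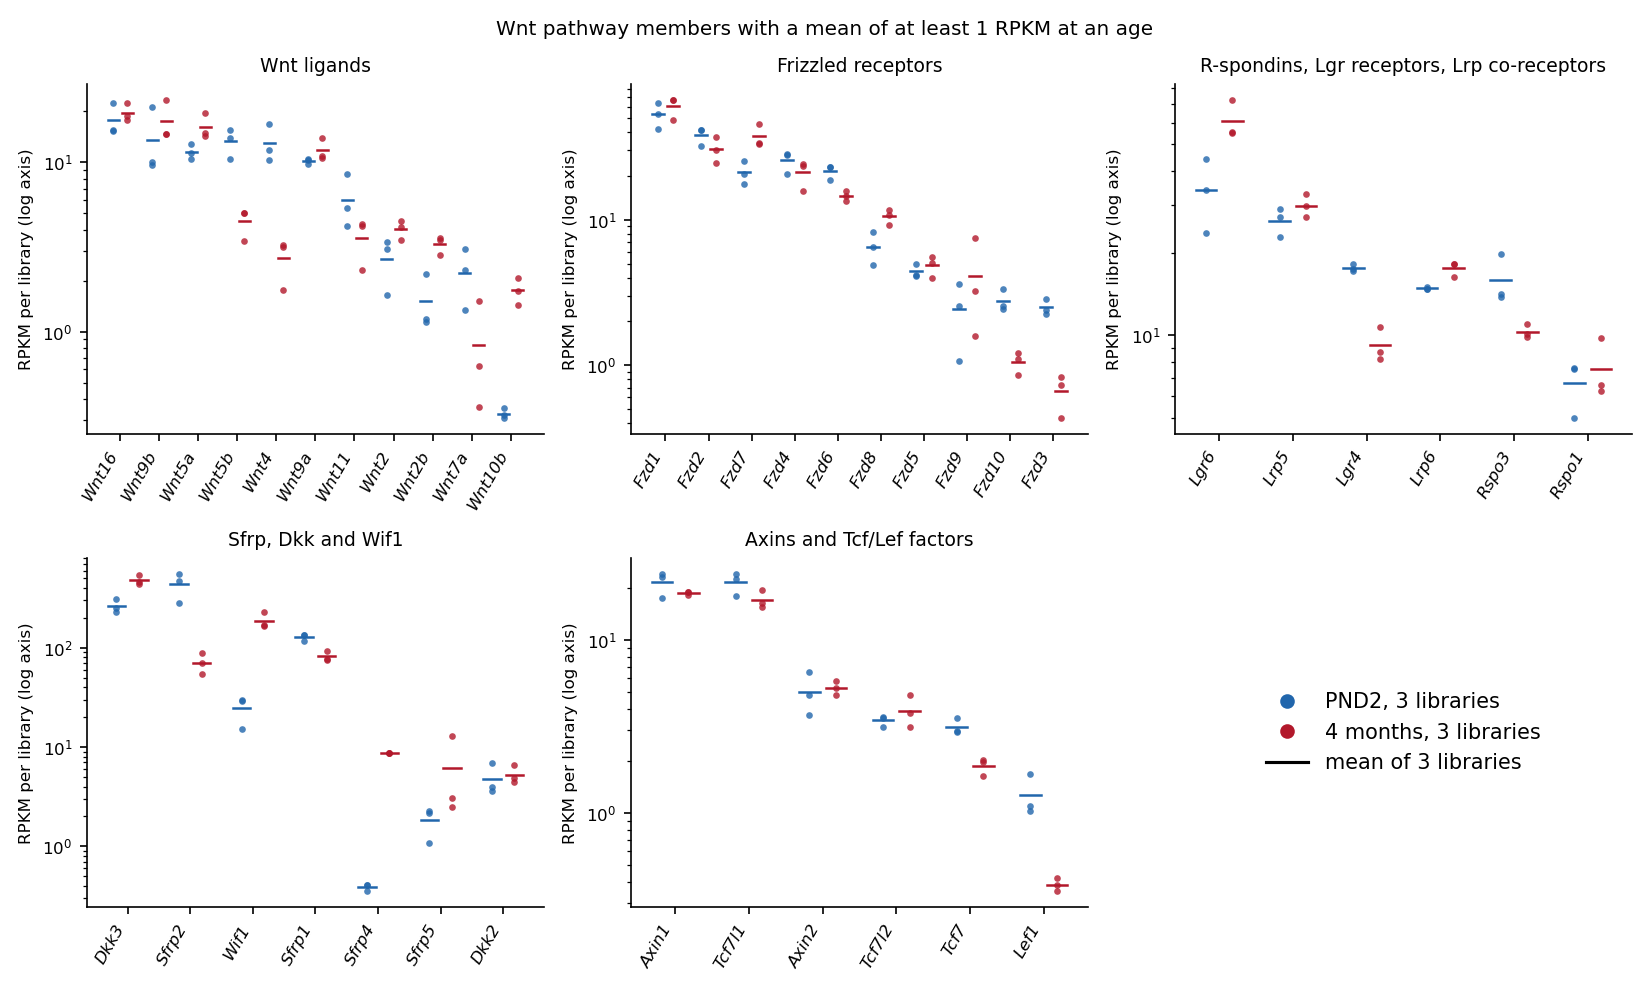
RPKM per library on a log axis is shown for the members with a mean of at least 1 RPKM at an age, in 5 panels by role, with a point for each of 3 PND2 (blue) and 3 libraries at 4 months (red) and a bar for the mean. Wnt4, Wnt5b, Fzd3, Fzd10, Lgr4, Sfrp2 and Lef1 stand lower and Wnt10b, Sfrp4 and Wif1 higher at 4 months with clear gaps.

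Among the Frizzled receptors, the 10 genes summed to 161, 192 and 184 RPKM at PND2 and to 209, 163 and 185 RPKM at 4 months. All were tested, and 2 were higher and 3 lower, or 20% and 30%, beside 14.7% and 21.1% of all genes tested. Fzd3, a receptor with a known role in planar polarity and axon guidance, was at 2.26, 2.39 and 2.86 RPKM at PND2 and at 0.728, 0.835 and 0.433 RPKM at 4 months (-1.80 ± 0.29, adjusted p = 0.00331). The Fzd3 call was lost in a test of each gene alone with unequal variances, as the study used (adjusted p = 0.0596), and over the alternatives its adjusted p ran from 5.7e-04 to 0.0596. Fzd10 was at 2.43, 2.54 and 3.33 RPKM and at 1.22, 0.853 and 1.09 RPKM (-1.31 ± 0.24, adjusted p = 0.00599). Both fell more than 2-fold and neither overlapped. Fzd6, also tied to planar polarity, was at 23.1, 18.7 and 23.1 RPKM and at 15.7, 14.5 and 13.5 RPKM (-0.56 ± 0.12, adjusted p = 0.0120). Without PND2 replicate 3 its call was lost narrowly (-0.51, adjusted p = 0.0501), and over the alternatives the adjusted p ran from 0.00725 to 0.0707.

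The receptors that rose were Fzd7 and Fzd8. Fzd7 was at 20.7, 25.4 and 17.7 RPKM at PND2 and at 45.5, 33.0 and 33.7 RPKM at 4 months, so no library overlapped (0.81 ± 0.18, adjusted p = 0.0109). With unequal variances the Fzd7 call was lost (adjusted p = 0.0792), and its range over the alternatives was 0.00432 to 0.0792. Fzd8 was at 4.85, 8.24 and 6.54 RPKM and at 11.7, 9.25 and 10.9 RPKM (0.71 ± 0.21, adjusted p = 0.0338). The call for Fzd8 was lost without PND2 replicate 1 (0.52, adjusted p = 0.0584), PND2 replicate 3 (0.73, 0.0811), 4 months replicate 1 (0.64, 0.0963) or 4 months replicate 3 (0.69, 0.0971), and its adjusted p ran from 0.0146 to 0.160 over the alternatives. The most abundant receptor, Fzd1, was at 42.4, 64.1 and 53.7 RPKM and at 66.2, 48.2 and 66.3 RPKM, with the ages overlapping. Fzd2 was at 32.1, 41.7 and 41.7 RPKM and at 37.1, 24.6 and 30.3 RPKM. Fzd4, which is known from endothelial cells, was at 27.7, 20.7 and 28.5 RPKM and at 23.6, 24.2 and 15.9 RPKM. None of these 3 was called, with adjusted p of 0.497, 0.178 and 0.314. Fzd5 was at 4.15, 4.98 and 4.09 RPKM and at 5.56, 4.00 and 5.06 RPKM. Fzd9 was the most scattered, at 1.06, 3.62 and 2.56 RPKM and at 1.59, 3.24 and 7.55 RPKM, and neither was called.

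Of the 2 co-receptors neither was called in the main test. Lrp5 was at 22.9, 28.9 and 27.1 RPKM at PND2 and at 29.7, 27.0 and 32.8 RPKM at 4 months. Lrp6 was at 15.1, 14.8 and 14.8 RPKM and at 18.2, 18.3 and 16.3 RPKM, which did not overlap but missed the threshold (0.23 ± 0.10, adjusted p = 0.105). Lrp6 was called higher after scaling to a common median (0.36, adjusted p = 0.0268) and after quantile normalization (0.32, 0.0406). It was also called with counts of up to 10 reads set to 10 reads (0.23, 0.0333). Over the alternatives its adjusted p ran from 0.0268 to 0.237. Of the 3 R-spondin receptors, 1 was called lower and 1 higher, or 33.3% each, beside 21.1% and 14.7% of all genes tested. Lgr4 was at 17.3, 18.2 and 17.4 RPKM and at 8.66, 10.7 and 8.19 RPKM (-0.94 ± 0.13, adjusted p = 0.00184). The unequal-variance test did not call Lgr4 (adjusted p = 0.0655, range over the alternatives 3.7e-04 to 0.0655). Lgr6 was at 23.7, 44.0 and 34.1 RPKM and at 72.4, 54.8 and 55.5 RPKM (0.87 ± 0.23, adjusted p = 0.0221). No library of either gene overlapped between the ages. Lgr4 made up 34.9% ± 6.4 of the summed Lgr RPKM at PND2 and 13.3% ± 2.8 at 4 months (SD, n = 3). The Lgr6 call was lost without PND2 replicate 3 (0.90, adjusted p = 0.0569), 4 months replicate 1 (0.74, 0.0657) or 4 months replicate 3 (0.93, 0.0520), with adjusted p from 0.00964 to 0.149 over the alternatives. Lgr5, a marker of many stem cells, stayed between 0.213 and 0.272 RPKM in all libraries.

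Among the ligands of the Lgr receptors, Rspo3 was at 13.8, 19.8 and 14.2 RPKM at PND2 and at 11, 9.84 and 10.1 RPKM at 4 months (-0.60 ± 0.16, adjusted p = 0.0251). It was not called without PND2 replicate 2 (-0.43, adjusted p = 0.0530), 4 months replicate 2 (-0.57, 0.0712) or 4 months replicate 3 (-0.59, 0.0748), and its adjusted p ran from 0.0205 to 0.155 over the alternatives. Rspo1 was at 7.62, 4.99 and 7.53 RPKM and at 9.78, 6.26 and 6.58 RPKM, with the ages overlapping. Rspo2 had means of 0.396 and 0.142 RPKM, and Rspo4 had at most 4 reads in a library and was not tested.

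The secreted antagonists held members that were called in each direction. Of the 4 Sfrp genes 1 was higher and 2 lower, or 25% and 50%. Of the 4 tested among the Dkk genes and Wif1, 2 were higher and 1 lower, or 50% and 25%. Over all genes tested, 14.7% were higher and 21.1% lower. The 1 lower is Dkk1, which had to differ because of how it passed the filter. The median log2 fold changes of these 2 groups, with Dkk1 counted, were 0.35 and 0.52. Their summed RPKM, which is set mostly by Sfrp2 and Sfrp1 and by Dkk3 and Wif1, differed as follows. The 4 Sfrp genes summed to 400, 694 and 609 RPKM at PND2 and to 175, 151 and 177 RPKM at 4 months, a 3.38-fold lower mean. Frzb, a relative of the Sfrp genes given below, is left out of that sum by the naming rule. The Dkk genes and Wif1 summed to 251, 342 and 287 RPKM at PND2 and to 615, 624 and 781 RPKM at 4 months, a 2.30-fold higher mean. Neither sum overlapped between the ages. Both sums lay above that of the ligands, which had means of 92.8 and 86.8 RPKM. Most of the Dkk and Wif1 sum was Dkk3, at 89.9% ± 1.2 at PND2 and 71.4% ± 1.6 at 4 months (SD, n = 3). Dkk3 is a divergent member of its family, and whether it acts as a Wnt antagonist here was not tested.

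Sfrp2, whose gene lies at chr3:83766321-83774316, was at 282, 556 and 472 RPKM at PND2 and at 70.8, 54.0 and 87.9 RPKM at 4 months. The PND2 libraries were spread over a wide range but all stood above those at 4 months (-2.59 ± 0.28, adjusted p = 6.2e-04). Sfrp1 was at 116, 136 and 135 RPKM and at 92.6, 75.3 and 78.0 RPKM, a smaller difference with no overlap (-0.66 ± 0.12, adjusted p = 0.00481). With these changes Sfrp2 went from 76.0% ± 5.0 to 41.9% ± 7.0 of the summed Sfrp RPKM, and Sfrp1 from 23.6% ± 4.8 to 48.9% ± 4.5 (SD, n = 3). Sfrp4, which is known from bone and from phosphate handling, was at 0.350, 0.411 and 0.409 RPKM at PND2, from 21 to 24 reads, and at 8.77, 8.66 and 8.81 RPKM at 4 months. Of the 4 members named Sfrp it was the only one called higher (4.18 ± 0.19, adjusted p = 3.0e-05). Its libraries at 4 months were the closest, relative to their mean, of the named members. Sfrp5 was at 2.19, 2.26 and 1.08 RPKM and at 3.07, 13.0 and 2.51 RPKM, which did not overlap but missed the threshold (1.37 ± 0.62, adjusted p = 0.128). Its highest library, 4 months replicate 2, is also the one with the highest adipocyte marker sum, and the part of those cells was not tested. Part of Sfrp2, 347 bases or 16.1% of its exons, overlaps the antisense gene Gm26771, and whether reads were counted by strand is not given in the sources used here.

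Wif1 was at 15.3, 29.7 and 28.8 RPKM at PND2 and at 170, 164 and 229 RPKM at 4 months. Its mean was 7.64-fold higher at 4 months (2.97 ± 0.27 on the log2 scale, adjusted p = 3.3e-04), and the lowest library at 4 months lay far above the highest at PND2. Dkk3, a divergent member of the Dkk family, was the most abundant member at 4 months, at 228, 308 and 254 RPKM at PND2 and at 440, 456 and 545 RPKM at 4 months (0.87 ± 0.15, adjusted p = 0.00392). The unequal-variance test left Dkk3 just short of a call (adjusted p = 0.0505, range over the alternatives 0.00123 to 0.0505). Wif1 thus went from 8.27% ± 2.0 to 27.8% ± 1.5 of the summed Dkk and Wif1 RPKM (SD, n = 3). Of the members that bind Lrp5 and Lrp6, Dkk2 was at 6.89, 3.99 and 3.58 RPKM and at 4.84, 4.43 and 6.59 RPKM, and was not called. Dkk1 was near the limit of detection, with 16, 11 and 21 reads at PND2 and 4, 0 and 2 reads at 4 months. Its RPKM of 0.169, 0.149 and 0.296 and of 0.0441, 0 and 0.0285 did not overlap (-1.28 ± 0.39, adjusted p = 0.0400), which is no support for a difference because of how it passed the filter. The Dkk1 call was lost whichever library was left out, with values from -1.07 to -1.41 and adjusted p from 0.0654 to 0.137, and over all alternatives the adjusted p ran from 0.0119 to 0.241. Dkk4 had at most 2 reads in a library.

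Exons were compared without a test. Of the called members, 15 had 3 or more exons with at least 20 reads on average at 1 or both ages. All 106 such exons of these 15 lay on the side of the gene's call by their means. An exon could pass this limit through its higher age alone, which favours separation. The ages did not overlap in 82 of these 106 exons, and in 8 of the 15 members they overlapped in no exon. These exons hold the same reads that gave the calls, so their side and separation are no further support for them. The same share over the exons of all genes is not given here. Overlap was most common in Lgr6, with 6 of 18 exons apart, Wnt5a, with 1 of 5, and Rspo3, with 2 of 5. Lef1 could be read in 5 of 14 exons, and Tcf7 and Wnt10b in 1 each. For Wif1 all 10 exons were higher at 4 months, with log2 ratios of the mean RPKM + 0.1 from 2.50 to 3.16 and no overlap in any. The 6 exons of Sfrp4 ran from 3.79 to 7.38 and the 8 exons of Dkk3 from 0.62 to 1.07, again with none overlapping. The whole of Sfrp4 held 24, 22 and 21 reads at PND2, so most of its exons could pass only through 4 months. The exon ratios of Sfrp4 rest on very few PND2 reads and the added 0.1. In Sfrp1 the last exon, which is 3467 bases long, differed by -0.55 and the other exons by a median of -1.21. A last exon that stood higher at 4 months relative to the other exons was common. It was found in 22 of 29 members that could be read, or 75.9%, and in 74.2% of 11076 protein-coding genes. By call it was found in 9 of 9 members called lower (median difference 0.42), 4 of 6 called higher (0.07) and 9 of 14 not called (0.18), beside a median of 0.14 over all protein-coding genes read. Whether these shares differ was not tested. Lrp6, which was not called as a gene in the main test, showed the same on 22 exons. Its last exon of 4605 bases went from 23.8 ± 1.1 to 31.5 ± 0.79 RPKM (SD, n = 3), while its other exons differed by a median of -0.02.

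**Figure D3:**
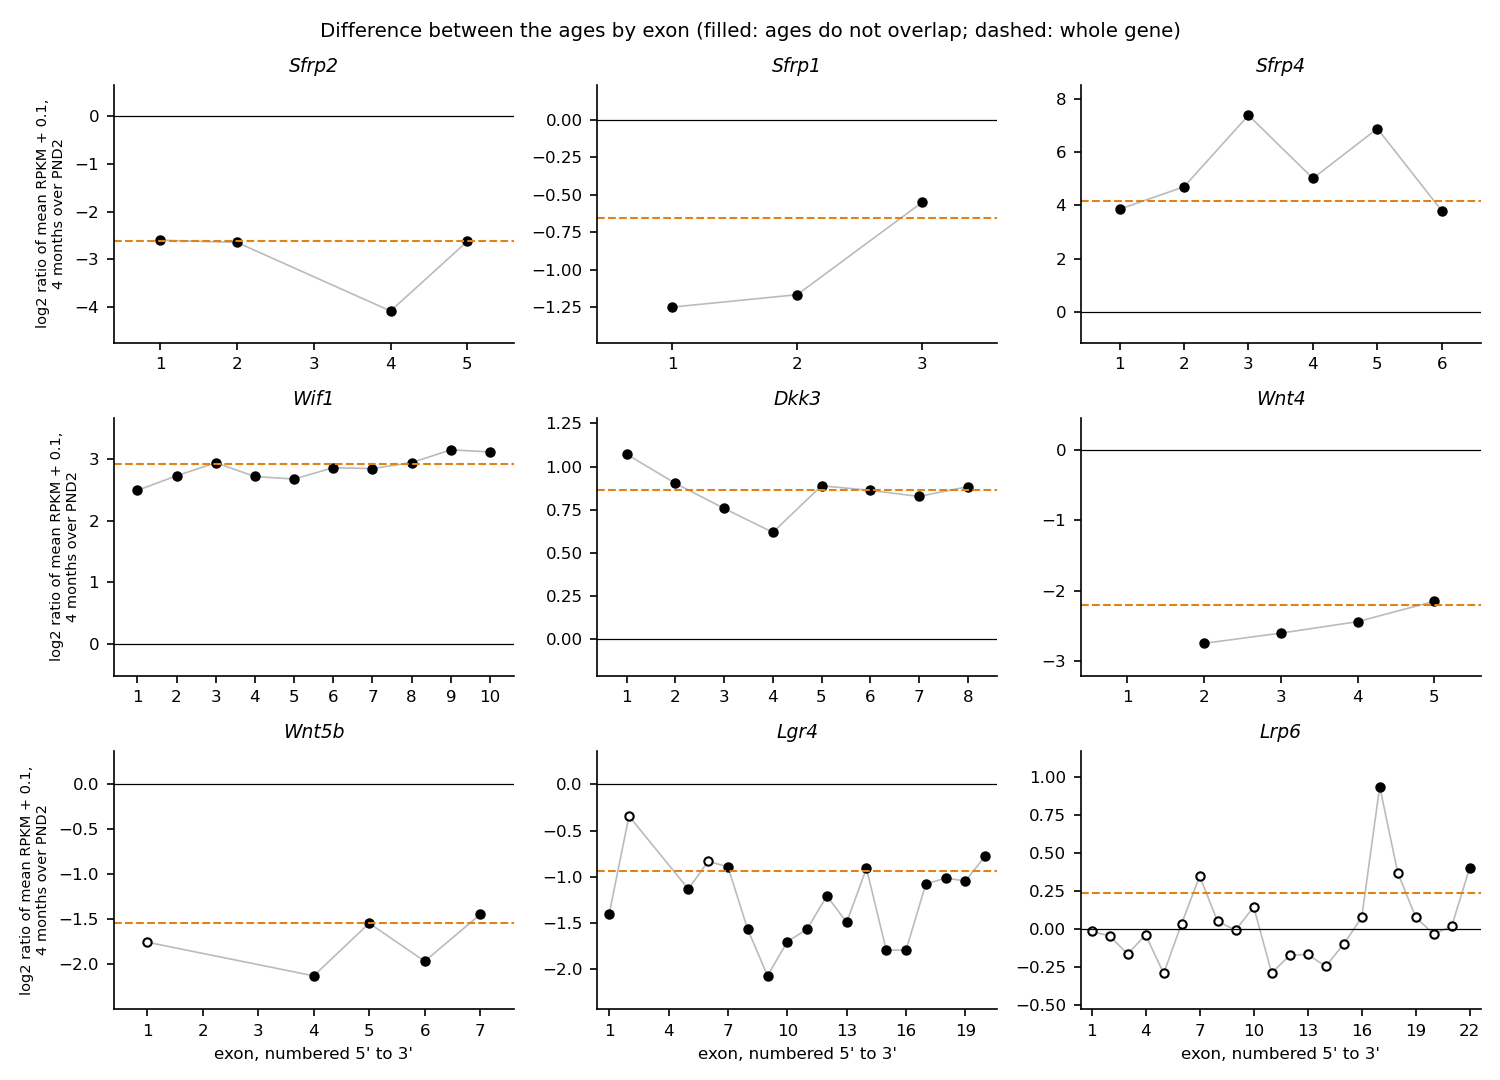
For 9 members, each point is 1 exon in order from 5′ to 3′, with the log2 ratio of mean RPKM + 0.1 at 4 months over PND2 on an axis scaled to each gene, filled where the 3 libraries of the 2 ages did not overlap. The dashed line is the same ratio for the whole gene, and exons with under 20 reads on average at both ages are left out. All 10 exons of Wif1 stand between 2.50 and 3.16.

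No reads were counted on the short exons at inner starts of Lef1 and Tcf7l2. These exons are 24, 15 and 92 bases long at Lef1 and 128 at Tcf7l2, so their lack of reads does not show that a start is unused. At Lef1, exons within 200 bases of the 2 inner RefSeq starts held 0 reads in all libraries. The exon at its main start, of 1208 bases, held 65, 106 and 56 reads at PND2 and 22, 22 and 38 at 4 months. The inner start of Tcf7l2 likewise held 0 reads, beside 114, 65 and 84 reads at PND2 and 192, 69 and 78 reads at 4 months on the exon at its main start. At Wnt11 the exon at the inner start, 3733 bases downstream, held 13, 34 and 18 reads at PND2 and 18, 6 and 18 at 4 months. A shorter exon of 183 bases with the same end held 13, 32 and 18 and then 18, 6 and 18 of them. These reads therefore do not show that the inner start of Wnt11 was used. The exon at its main start held 8, 26 and 28 and then 39, 8 and 24. The exon at the main Lef1 start overlaps the antisense gene Gm43352.

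Inside the cell, neither Axin was called and 2 of the 4 Tcf/Lef factors were lower, or 50%, beside 21.1% of all genes tested. Axin1, the scaffold of the destruction complex, was at 17.6, 24.2 and 23.2 RPKM at PND2 and at 18.9, 18.2 and 19.0 RPKM at 4 months. Axin2, a scaffold that is also a common target gene of beta-catenin, was at 4.83, 6.55 and 3.71 RPKM and at 5.80, 4.84 and 5.31 RPKM. The ages overlapped for both and neither was called, with log2 fold changes of -0.20 ± 0.14 and 0.11 ± 0.22. Axin1 was called lower without PND2 replicate 1 (-0.34, adjusted p = 0.0331), its lowest library, and its adjusted p ran from 0.0331 to 0.679 over the alternatives. Lef1, a factor that mostly activates target genes, was at 1.09, 1.68 and 1.02 RPKM and at 0.350, 0.382 and 0.421 RPKM (-1.46 ± 0.30, adjusted p = 0.00844). Lef1 was not called by the unequal-variance test (adjusted p = 0.0699, range over the alternatives 0.00126 to 0.0699). Tcf7 was at 2.97, 3.52 and 2.94 RPKM and at 2.03, 1.63 and 1.97 RPKM (-0.71 ± 0.20, adjusted p = 0.0276). Both were lower with no overlap. The Tcf7 call was lost without PND2 replicate 2 (-0.63, adjusted p = 0.0933), PND2 replicate 3 (-0.76, 0.0645), 4 months replicate 2 (-0.62, 0.0815) or 4 months replicate 3 (-0.75, 0.0625), and its adjusted p ran from 0.0121 to 0.0933 over the alternatives. Tcf7l1, which mostly represses targets, was the most abundant of the 4, at 18.1, 22.4 and 24.2 RPKM and at 19.4, 15.5 and 16.4 RPKM. It was not called (-0.33 ± 0.15, adjusted p = 0.119), except without PND2 replicate 1 (-0.45, adjusted p = 0.0403), with adjusted p from 0.0403 to 0.318 over the alternatives. Tcf7l2 was at 3.14, 3.54 and 3.61 RPKM and at 4.81, 3.13 and 3.79 RPKM.

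The other genes of the pathway, 93 in lists by function, were mostly lower where they were called. These lists were chosen with earlier results of these data known, so their counts describe the listed genes and are no test of the pathway. Of 87 tested, 8 were higher and 38 lower, or 9.20% and 43.7%, beside the 14.7% and 21.1% of all genes tested, and their median log2 fold change was -0.38. Musk, 1 of those higher, passed the filter through 1 age only and leaves 7 higher when set aside, and it is named after its values were seen. After scaling to a common median the split was 14 higher and 33 lower, and after quantile normalization 14 and 36. The count higher was 5 without PND2 replicate 3, 4 months replicate 1 or 4 months replicate 3. By list, the counts higher and lower were 0 and 7 of 11 tested for planar polarity, 0 and 8 of 16 for target genes, 2 and 5 of 9 for other co-receptors, 4 and 6 of 15 for other secreted modulators, 1 and 8 of 22 for the intracellular cascade, 0 and 6 of 15 for nuclear cofactors, 1 and 0 of 2 for Wnt secretion and 0 and 0 of 2 for receptor turnover.

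Co-receptors of the non-canonical branch were among the genes that fell. Ror2, which binds Wnt5a, was at 6.43, 8.13 and 8.16 RPKM at PND2 and at 0.814, 1.27 and 1.38 RPKM at 4 months (-2.63 ± 0.24, adjusted p = 3.5e-04). Ptk7, a pseudokinase of planar polarity, was at 33.0, 44.1 and 41.7 RPKM and at 5.13, 4.68 and 6.48 RPKM (-2.85 ± 0.17, adjusted p = 6.1e-05). Cthrc1, a secreted protein that binds Wnt, Frizzled and Ror2, was at 102, 118 and 91.3 RPKM and at 2.66, 3.32 and 7.12 RPKM (-4.66 ± 0.33, adjusted p = 1.3e-04). All 3 were lower with no overlap. The membrane and cytoskeletal planar polarity genes Vangl2 (-1.80), Celsr1 (-1.85), Prickle4 (-1.37) and Daam1 (-1.17) were also lower on the log2 scale. So was Adgra2 (-1.19), a co-receptor for Wnt7 ligands. Of the ligands for this branch, Wnt5b was called lower and Wnt11 was not called, as given above. Wnt5a was called higher, but that call was lost whichever library was left out.

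Of the target genes, Wisp1, a matricellular protein, was at 28.1, 45.7 and 35.7 RPKM at PND2 and at 4.86, 4.36 and 3.48 RPKM at 4 months (-3.06 ± 0.21, adjusted p = 1.1e-04). Notum, an enzyme that removes the lipid from Wnt proteins, was at 1.38, 3.01 and 1.58 RPKM and at 0.267, 0.0698 and 0.316 RPKM (-2.74 ± 0.46, adjusted p = 0.00395). Both stood apart between the ages. Myc (-1.17), Ephb3 (-1.43) and Sp5 (-1.89) were lower as well, and Sp5 was not called without PND2 replicate 2 (-1.81, adjusted p = 0.0712), PND2 replicate 3 (-1.69, 0.0859), 4 months replicate 2 (-1.41, 0.0538) or 4 months replicate 3 (-1.95, 0.0641), with adjusted p from 0.0164 to 0.134 over the alternatives. The unequal-variance test did not call Notum (adjusted p = 0.0514), Myc (0.0583) or Ephb3 (0.108), where the ranges over the alternatives began at 0.0033, 0.00211 and 0.00266. Axin2, given above, did not pass the main test. Mitotic genes, whose sum also fell with age, move with these values, and their part was not tested.

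Among other secreted modulators, Frzb, a relative of the Sfrp genes, was at 16.4, 29.9 and 22.5 RPKM at PND2 and at 39.7, 58.5 and 107 RPKM at 4 months (1.49 ± 0.37, adjusted p = 0.0181). The Frzb call was lost without PND2 replicate 1 (1.27, adjusted p = 0.0555) or PND2 replicate 3 (1.5, 0.0511), and its adjusted p ran from 0.00726 to 0.134 over the alternatives. Igfbp4, a growth factor binding protein that can block Frizzled and Lrp6, was at 130, 140 and 181 RPKM and at 413, 302 and 382 RPKM (1.28 ± 0.17, adjusted p = 0.00143). These were higher with no overlap. The heparan sulfate proteoglycans Gpc3 (-1.89) and Gpc4 (-1.25) and the BMP-binding protein Bmper (-1.19) were lower, as were Tnks (-1.31), which marks Axin for breakdown, and Sox7 (-1.37), a factor that binds beta-catenin. The unequal-variance test did not call Gpc4 (adjusted p = 0.0938), Sox7 (0.0685) or Bmper (0.143), where the ranges over the alternatives began at 7.0e-04, 5.3e-04 and 0.00604. Sost, which binds Lrp5 and Lrp6 and was chosen here after its values were seen, was as abundant as the main antagonists, at 335, 494 and 399 RPKM and at 615, 492 and 482 RPKM. The ages of Sost overlapped and it was not called (0.38 ± 0.17, adjusted p = 0.128).

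**Figure D4:**
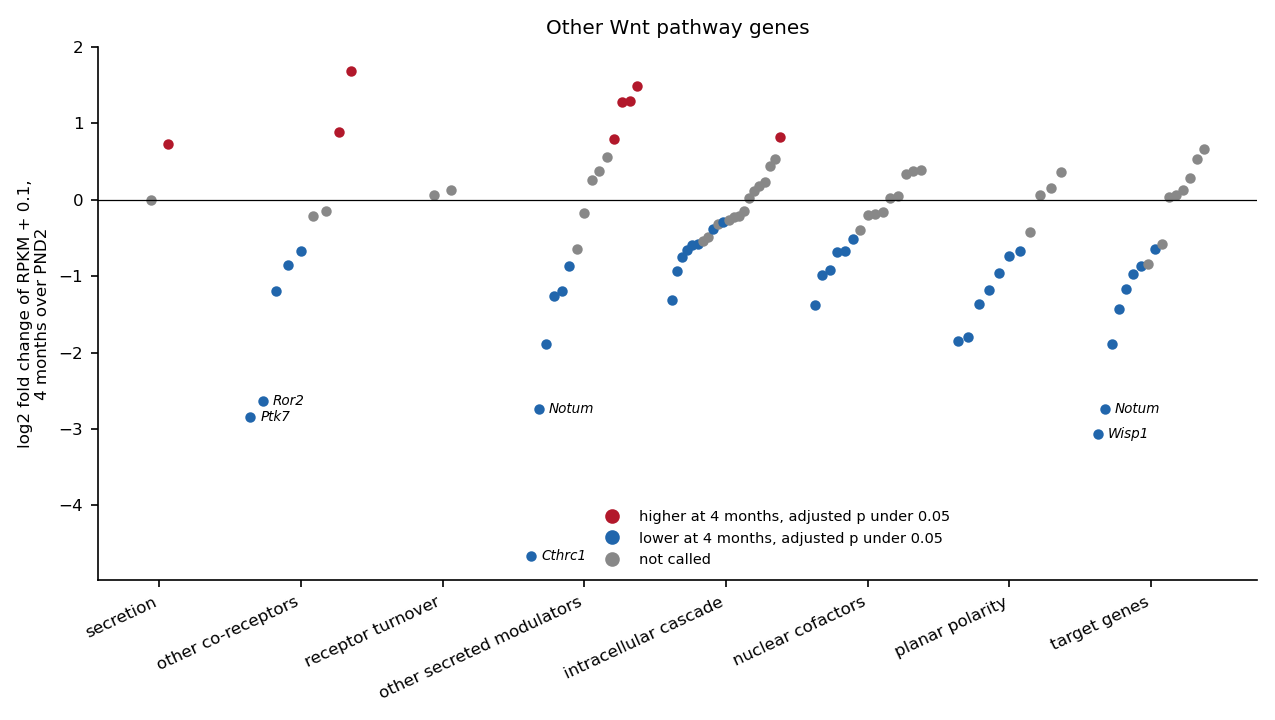
Each point is 1 of the 87 other Wnt pathway genes tested, by list, with the log2 fold change of RPKM + 0.1, 4 months over PND2, on the vertical axis, and Notum stands in both lists that hold it. Blue points (38 genes lower) outnumber red points (8 genes higher), and Cthrc1 is lowest at -4.66.

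Sfrp2, Sfrp4, Wnt4, Wnt5b, Wnt10b, Ror2, Wisp1, Cthrc1, Gpc3 and Igfbp4 also stand in gene lists that the study drew from these libraries, so those lists are no independent evidence for them. For Sfrp4 the study also reported RT-qPCR, a separate measure of messenger RNA, on independent valve samples. By that measure too, the study found Sfrp4 higher in the adult valve.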

How the data were processed

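RNA-seq libraries of aortic valves were compared between PND2 (3 libraries) and 4 months (3 libraries). The authors extracted RNA with TRI reagent, made stranded TruSeq libraries, aligned paired reads to mm10 with TopHat2 2.1.0 and counted them on Ensembl exons and genes. The deposited values used here are RPKM, before the authors' minimum of reads, and the authors' own comparison was left unused. Whole reads were recovered from RPKM, exonic length and a library total read from the smallest step, and 100% of values came out whole within 0.01 read. They summed to 2.31 to 2.36 times the totals, so a read could be counted more than once, and limits from 3 reads cover counting error only. The log2(RPKM + 0.1) values were fitted with limma (version 3.58.1, with R 4.3.3) and a trend, which was checked on simulated data, and fold changes of low genes are understated by the 0.1. Other steps used the R package data.table, version 1.17.8, and pandas 2.3.3, numpy 2.4.6, matplotlib 3.10.9 and scipy 1.17.1 under Python 3.11.15.

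Members and lists were chosen with earlier results of these data known. Named are members with a mean of at least 1 RPKM at an age or called with a fold over 2, and other pathway genes with both. The study's test per gene allowed unequal variances, and it was run as an alternative because 3 libraries an age leave it few degrees of freedom.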

Additional observations from a re-analysis of the deposited data

How the results depend on the processing

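Of the 41 named members, 21 were called, 8 of these kept their call under all 17 alternatives, and 0 called members reversed. Of the 20 other named pathway genes, whose alternatives were chosen after seeing the data, 12 kept it. Leaving out 1 library reversed 3 members that were not called. Axin2 ran from -0.0845 (without PND2 replicate 3) to 0.3184, Dkk2 from -0.0096 (without PND2 replicate 3) to 0.4538, and Rspo1 from -0.038 (without 4 months replicate 1, and -0.0357 without PND2 replicate 2) to 0.2795. A test of each gene alone with unequal variances, as the study used, called 3 members higher and 6 lower, 7 with a fold over 2, and 2 other pathway genes higher and 17 lower. A pseudocount of 1 left 7 members with a fold over 2. Other pathway genes higher numbered 14 after median scaling and 14 after quantile normalization. Leaving out each library in turn gave 5 to 9 members higher (5 without PND2 replicate 3 or 4 months replicate 1), 9 to 13 lower, 9 to 11 with a fold over 2, and 5 to 6 other genes higher and 26 to 37 lower. The share of all genes called under each alternative is not given here, so these counts cannot show a loss particular to the members. The cause of these shifts was not tested.

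Same-numbered libraries of the 2 ages did not deviate together (r = 0.04, -0.06 and -0.16 across genes), so the numbers do not pair them. With the replicate block, 6 members were higher, 9 lower and 10 past a fold of 2, and 6 other genes were higher and 31 lower, again without a share of all genes beside them. The 8 members not tested lay below the filter, and at this depth a low level and no expression cannot be told apart there.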
